A study of Homo sapiens with 4 samples.

Results

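The 31 constitutive subunits of the 26S proteasome were followed in 4 RNA-seq libraries of glioblastoma cells with and without knockdown of the transcription factor FLI1. The members were taken from a list of the standard core and cap genes with the immunoproteasome subunits left out: 14 genes of the 20S core (*PSMA1* to *PSMA7* and *PSMB1* to *PSMB7*) and 17 genes of the 19S cap (*PSMC1* to *PSMC6* and 11 *PSMD* genes). All 31 were found among the 46660 gene identifiers of the table. The libraries came from U87MG and U251MG, established human glioblastoma cell lines grown under the same conditions. Each cell line gave 1 library of control cells, which carried the empty lentiviral vector (pGreen, called shControl in the sample titles), and 1 of knockdown cells, whose virus delivered shRNA against *FLI1* (shFLI1). The paper describes infection, puromycin selection and collection of mixed stable cells for its PCR and western blots. It does not say whether the RNA-seq libraries came from such cells. Its methods list more than 1 shRNA against *FLI1*, and which of them each shFLI1 library carries is not given. The comparison asked how the transcripts of this machine stood in the knockdown cells and whether core and cap differed.

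The 26S proteasome degrades proteins that carry ubiquitin chains. Its core is a barrel of stacked alpha and beta rings, and only some of the beta subunits cut peptide bonds. The cap binds ubiquitin, removes it, unfolds the substrate with a ring of ATPases and feeds it into the barrel. The subunits are needed in fixed proportions, and their genes are known to be raised together by the transcription factor NFE2L1 when proteasome activity falls short. Tumour cells, glioblastoma among them, are known to depend on this machine, and the catalytic subunit encoded by *PSMB5* is the main target of bortezomib.

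The libraries held between 12229780 and 28891055 summed counts, and the shFLI1 library was the deeper library in each cell line. *FLI1*, the targeted gene, was at 9.34 and 2.34 CPM (counts scaled to library size) in the U87MG control and shFLI1 libraries and at 12.1 and 3.71 CPM in those of U251MG. Its log2 fold change was -1.95 in U87MG and -1.68 in U251MG (adjusted p = 0.0142 in edgeR's quasi-likelihood test, in which the cell lines are blocks). Of 8 glial and glioma markers fixed for a check of the labels, 7 were at 2.64 CPM or more in every library, and *S100B* was at 0.367 CPM or less. Of the 5 markers of other cells that were analysed, *PTPRC*, *PECAM1*, *MBP* and *RBFOX3* stayed at 0.501 CPM or less, and *CD68*, a lysosomal protein abundant in macrophages, went from 4.10 to 0.540 CPM in U87MG and from 9.14 to 0.468 CPM in U251MG. The part of these markers in the results was not tested. *CD3E* and *EPCAM* were not analysed here.

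FLI1 belongs to the ETS family, whose members bind DNA at sites with a GGAA core, so the promoters of the members were searched for such letters. RefSeq promoter windows (250 bases before to 50 after the start, GRCh38.p14) were at hand for 26 members, with 32 windows in all. No window was used for *PSMA7*, *PSMB1*, *PSMB6*, *PSMB7* and *PSMD4*. The 8-letter ETS motif CCGGAAGT, read on either strand, was found in 7 of the 32 windows (21.9%), against 4.14% of all 35116 windows of that table and 6.99% of the 16245 windows of protein-coding genes tested here. The 7 sites are printed below with 11 bases on each side, on the strand of the gene, because they include the members with the highest (*PSMD12*) and the lowest (*PSMA6*) log2 fold change of shFLI1 over control in U87MG. Capitals mark the motif or its reverse complement.
PSMD12, chr17:67366568-67366597, minus strand: gtgcgcgggcaACTTCCGGtgtgggtgacg
PSMA6, chr14:35292387-35292416, plus strand: cagtcgctgcaACTTCCGGgaggtgcttgt
PSMC1, chr14:90256551-90256580, plus strand: gtggtggaggaACTTCCGGcagcggcagct
PSMC2, chr7:103347608-103347637, plus strand: gagcccaatttACTTCCGGtggggaaggga
PSMD8, chr19:38374542-38374571, plus strand: ggcaaaagccaACTTCCGGtcaccatcttg
PSMD13, chr11:236953-236982, plus strand: gccgctcggcgCCGGAAGTgagtgagcatt
PSMD14, chr2:161308410-161308439, plus strand: aactagtgaacCCGGAAGTgcttcgcggcg

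All 7 sites lay close to the annotated start, from 24 bases before it in *PSMC2* to 16 bases after it in *PSMA6*. The log2 fold changes of these 7 members ran from -0.36 to 0.63 in U87MG and from -0.25 to 0.12 in U251MG, with medians of -0.05 and 0.02. The 19 members with a window and without the motif ran from -0.32 to 0.47 and from -0.21 to 0.33, with medians of 0.02 and -0.02. The members with the motif therefore had no common direction, and their range overlapped that of the other members in both cell lines. The shorter letters GGAAGT, which lie within the longer motif, were in 59.4% of the members' windows. They were in 22.8% of all windows and in 25.4% of the windows of tested protein-coding genes. GCCATNTT, the motif of YY1, was in 31.3% of the members' windows, against 6.58% and 8.735% of these backgrounds. CCAAT, bound by NF-Y, was in 46.9%, against 34.6% and 35.06%. TGACNNNGC, the core of the antioxidant response element to which NFE2L1 and its relatives bind, was in 21.9%, against 13.4% and 14.05%. In 67 windows of other proteasome-related genes TGACNNNGC was more frequent than in the members, at 31.3%. CCGGAAGT, GGAAGT, GCCATNTT and CCAAT were less frequent there, at 8.955%, 23.9%, 7.46% and 32.8%. A match of letters is a description and does not show that a factor was bound.

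Before any comparison of conditions, the members were set against each other by their level per length, in FPKM as deposited (fragments corrected for transcript length and library size, summed over the RNAs of a gene). They spanned 27.8-fold in U87MG control cells, from *PSMD12* to *PSMA7* (444 FPKM), and 13.9-fold in U251MG control cells, from 28.5 FPKM for *PSMC6* to 397 FPKM for *PSMB3*. The core stood above the cap in every library. Its median FPKM was 154, 154, 152 and 149 in U87MG control, U87MG shFLI1, U251MG control and U251MG shFLI1 cells, against 65.0, 75.5, 69.0 and 77.9 for the cap. The ratio of the medians lay between 1.92 and 2.37, and between 2.15 and 2.70 when only the most abundant RNA of each gene was counted.

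The order of the levels differed little between libraries at both ends. *PSMA7*, an alpha ring subunit, *PSMB3*, a beta ring subunit without catalytic activity, and *PSMD2*, the scaffold of the cap base, took the top 3 places in each library, in varying order. Their FPKM ranges over the 4 libraries overlapped (296 to 493, 248 to 397 and 228 to 389), so their order is not settled. *PSMB6*, *PSMB4* and *PSMB7* followed with means of 250, 245 and 201 FPKM. At the low end stood *PSMA5* (31.3 to 33.1 FPKM), *PSMC1* (29.9 to 37.8 FPKM), *PSMC6* (28.5 to 34.1 FPKM) and *PSMD12* (15.98 to 34.03 FPKM), again with overlapping ranges. *PSMD12* varied most across the libraries, 2.13-fold, and *PSMA5* least, 1.06-fold. These levels rest on the authors' transcript models, and *PSMB3* had its counts split evenly over a pair of RNAs.

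**Figure D1:**
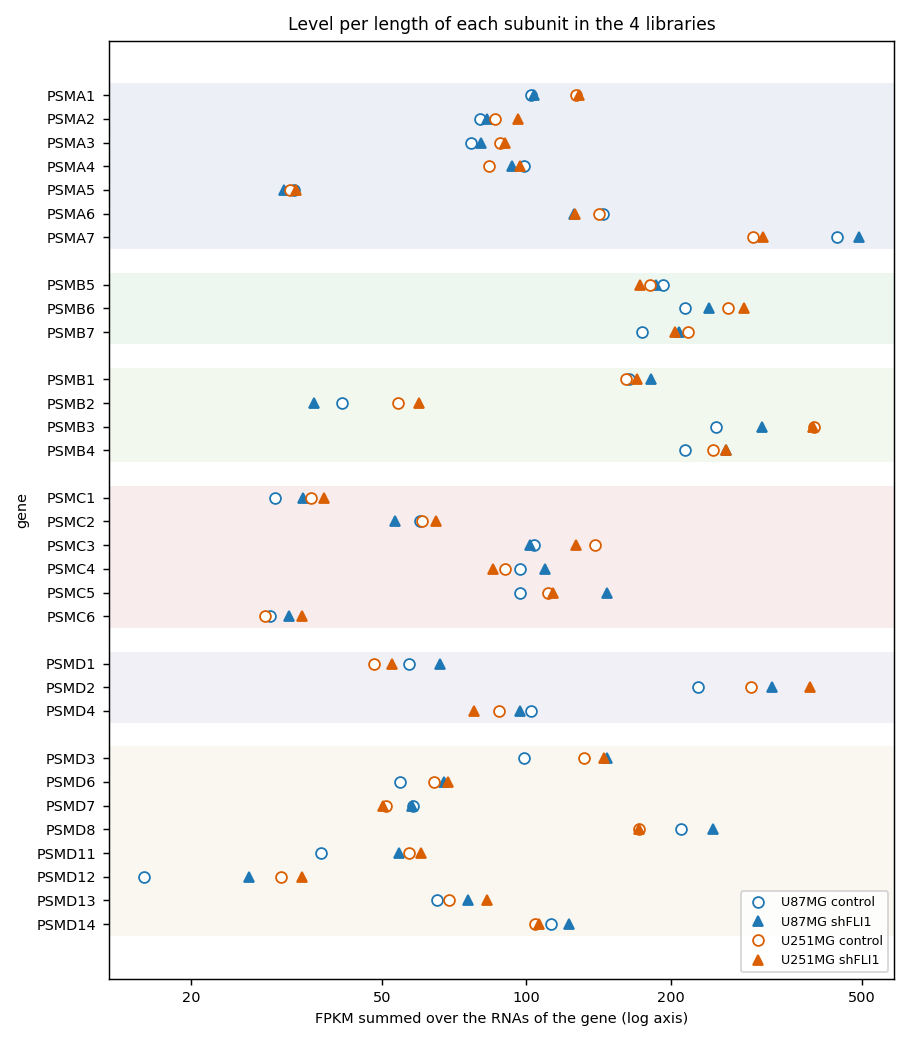
Level per length of the 31 subunits (FPKM summed over the RNAs of each gene, log axis), with 1 marker per library: open circles are control and filled triangles shFLI1 libraries, blue U87MG and orange U251MG; the shaded bands are, from the top, the alpha ring, the catalytic and non-catalytic beta subunits, the ATPases, the other base subunits and the lid. *PSMA7*, *PSMB3* and *PSMD2* lie at the right in every library, and the 4 markers of *PSMD12* run from 15.98 FPKM in U87MG control to 34.03 FPKM in U251MG shFLI1 cells.

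In the knockdown comparison the members moved little. Fold changes below are shFLI1 over control on log2 CPM scaled by the trimmed mean of M-values (TMM), with a prior count of 2. Each arm of a cell line is a single library, so differences within a cell line have no replicate check and no p is given. The bracketed ranges are 95% Clopper-Pearson intervals of the read proportion and cover counting error only. In such bulk libraries fewer cells of a kind and less RNA per cell cannot be told apart. The members' median log2 fold change was 0.02 in U87MG and -0.001 in U251MG, beside -0.01 and -0.006 for the 9772 genes with at least 100 counts in every library. All members belong to that class, with 485 counts or more. No member was past 2-fold in either cell line, where 14.5% and 9.76% of all genes tested were. These shares include many sparse genes, and the share of well-covered genes past 2-fold is not given here. The standard deviation of the log2 fold changes was 0.24 in U87MG and 0.14 in U251MG among the members. Among the 9772 well-covered genes it was 0.42 in each cell line.

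Small changes were counted at 0.32 on the log2 scale, which is 25% higher or 20% lower than control. By this threshold 5 of 31 members (16.1%) were higher in U87MG shFLI1 cells, against 30.1% of the 17355 genes tested, and 1 (3.23%) was lower, against 19.4%. In U251MG 2 members (6.45%) were higher, against 24.3% of 18222 genes, and 0 were lower, against 17.6%. These backgrounds hold many sparse genes. Among the 9772 well-covered genes the shares were 15.7% and 18.7% in U87MG, and 12.9% and 14.3% in U251MG. *PSMD2* alone was past this threshold in both (11.4% of 16384 genes were higher in both), and 0 members were lower in both (7.81%). With DESeq2 size factors 0 members were past it on the higher side in U251MG, *PSMD2* included, against 23.4% of all genes tested. The members past the threshold on the higher side were all cap genes: *PSMD12*, *PSMC5*, *PSMD3*, *PSMD11* and *PSMD2* in U87MG, and *PSMD2* and *PSMC6* in U251MG. They were 29.4% of the 17 cap genes in U87MG, against 30.1% of all genes tested and 15.7% of well-covered genes. In U251MG they were 11.8%, against 24.3% and 12.9%. With scaling to total counts the core gene *PSMB3* was also past the threshold in U87MG, at 0.35, and likewise with log2(FPKM + 0.1). Of all genes tested 41.1% and 40.3% were past it in U87MG under these settings.

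The core stood slightly below the cap in both cell lines. In U87MG the median log2 fold change was -0.09 for the core and 0.04 for the cap, a difference of -0.13, and the ranges overlapped widely (-0.36 to 0.19 and -0.32 to 0.63). In U251MG the medians were -0.04 and 0.02, a difference of -0.06, with ranges of -0.25 to 0.18 and -0.25 to 0.33. The summed CPM of the 14 core genes was 1931, 1852, 1927 and 1862 in U87MG control, U87MG shFLI1, U251MG control and U251MG shFLI1 cells, and that of the 17 cap genes 2672, 3001, 2862 and 3050. The summed cap was thus 0.17 higher on the log2 scale in U87MG and 0.09 higher in U251MG, and the summed core 0.06 and 0.05 lower. *PSMD2* alone made up 181 of the 329 CPM by which the cap sum was higher in U87MG. In U251MG it was 205 CPM higher, while the cap sum was 189 CPM higher and the other 16 cap genes together were 16.7 CPM lower. Both comparisons are between single libraries, and the difference of medians was not tested.

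**Figure D2:**
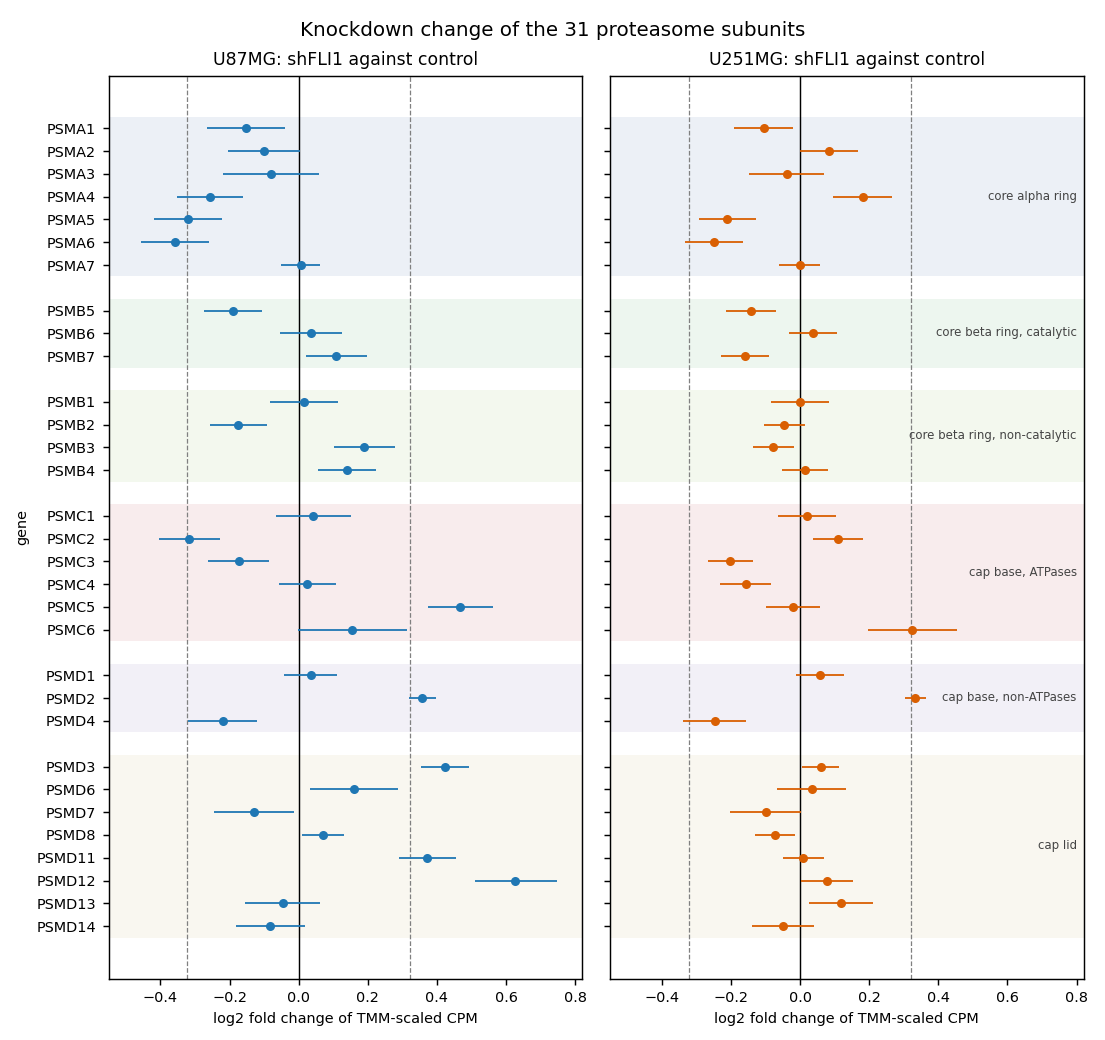
Log2 fold change (shFLI1 over control) of each subunit in U87MG (left) and U251MG (right). Points are single-library comparisons, bars 95% intervals of counting error, dashed lines the threshold of 0.32, and shaded bands the subcomplexes; most points lie between the dashed lines, and those to the right of them are cap genes under this scaling.

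The alpha ring forms the gate through which substrates enter. In U87MG 6 of its 7 members lay below 0, with a median of -0.15, and in U251MG 5 of 7, with a median of -0.04. Scaled to total counts instead, 3 of 7 lay below 0 in each cell line and the medians were 0.01 and 0.04, so the direction of the ring depends on the scaling. *PSMA6* stood lowest of all members in both cell lines. It was at 120, 93.3, 110 and 92.8 CPM in U87MG control, U87MG shFLI1, U251MG control and U251MG shFLI1 cells, so both shFLI1 libraries lay below both controls. Its log2 fold change was -0.36 (-0.46 to -0.26) in U87MG and -0.25 (-0.33 to -0.17) in U251MG. In U251MG the cap gene *PSMD4* lay almost as low, at -0.247 (-0.34 to -0.16), so their order there is not settled. *PSMA5* was at 124, 99.2, 113 and 97.3 CPM in the same order, again with the shFLI1 libraries lowest. This gave -0.32 (-0.42 to -0.22), just short of the threshold, and -0.21 (-0.29 to -0.13). *PSMA4* differed between the cell lines, with 128 and 107 CPM in U87MG control and shFLI1 cells and 95.8 and 109 CPM in U251MG. *PSMA7*, the most abundant alpha subunit per length, was at 0.01 in U87MG and -0.001 in U251MG.

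The 3 catalytic subunits did not share a direction. *PSMB5*, which carries the chymotrypsin-like activity, was at 161, 141, 143 and 130 CPM in U87MG control, U87MG shFLI1, U251MG control and U251MG shFLI1 cells. Both shFLI1 libraries were below their own controls, and the log2 fold change was -0.19 (-0.27 to -0.11) in U87MG and -0.14 (-0.21 to -0.07) in U251MG. *PSMB6*, with the caspase-like activity, was at 129, 132, 149 and 153 CPM, with fold changes of 0.04 (-0.06 to 0.13) and 0.04 (-0.03 to 0.11), whose intervals include 0. *PSMB7*, with the trypsin-like activity, was at 135, 145, 157 and 141 CPM, higher in U87MG by 0.11 (0.02 to 0.20) and lower in U251MG at -0.16 (-0.23 to -0.09). The 4 beta subunits without catalytic activity ran from -0.17 (*PSMB2*) to 0.19 (*PSMB3*) in U87MG and from -0.08 (*PSMB3*) to 0.01 (*PSMB4*) in U251MG.

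The 6 ATPases form the ring that unfolds substrates, and their values lay on both sides of 0. *PSMC5* was at 111, 154, 120 and 118 CPM in U87MG control, U87MG shFLI1, U251MG control and U251MG shFLI1 cells, so the U87MG shFLI1 library stood apart from the other three. The fold change was 0.47 (0.37 to 0.56) in U87MG and -0.02 (-0.10 to 0.06) in U251MG. *PSMC6*, the least covered member (485 to 1546 counts), was at 42.4, 47.1, 41.2 and 51.6 CPM, higher in both knockdown libraries. Its fold change was 0.15 (-0.003 to 0.31) and 0.32 (0.20 to 0.45). *PSMC3* was at 141, 125, 180 and 156 CPM, lower in both, with -0.17 (-0.26 to -0.09) and -0.20 (-0.27 to -0.14).

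The other ATPases were mixed. *PSMC2* was at 148, 119, 132 and 143 CPM, with -0.32 (-0.40 to -0.23) in U87MG, also just short of the threshold, and 0.11 (0.04 to 0.18) in U251MG. *PSMC4* was at 155, 157, 137 and 123 CPM, with 0.02 (-0.06 to 0.11) and -0.16 (-0.23 to -0.08). *PSMC1* was at 91.4, 94.1, 103 and 104 CPM, with 0.04 (-0.07 to 0.15) and 0.02 (-0.06 to 0.10). The ATPases thus held 1 member past the threshold on the higher side in each cell line, *PSMC5* in U87MG and *PSMC6* in U251MG.

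Of the 3 other base subunits analysed, *PSMD2* is a scaffold to which ubiquitin receptors and shuttle proteins dock. It was the member with the most counts (7379 to 29775) and stood at 644, 825, 789 and 994 CPM in U87MG control, U87MG shFLI1, U251MG control and U251MG shFLI1 cells. The shFLI1 library was the higher one in each cell line. Its log2 fold change was 0.36 (0.32 to 0.40) and 0.33 (0.30 to 0.36), nearly alike in the 2 cell lines. *PSMD2* lies on chromosome 3 from 184299241 to 184309050 (GRCh38). *PSMD4*, a ubiquitin receptor, was at 115, 98.8, 93.7 and 78.9 CPM, lower in both knockdown libraries, with -0.22 (-0.32 to -0.12) and -0.25 (-0.34 to -0.16). *PSMD1*, the other large scaffold of the base, was at 0.03 and 0.06 on the log2 scale.

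The lid removes ubiquitin chains before degradation. *PSMD14*, its deubiquitinase, was at 110, 104, 91.3 and 88.3 CPM, with fold changes of -0.08 (-0.18 to 0.02) and -0.05 (-0.14 to 0.04), whose intervals include 0. *PSMD12*, a structural subunit that holds the lid together, was at 67.2, 104, 126 and 133 CPM in U87MG control, U87MG shFLI1, U251MG control and U251MG shFLI1 cells. The U87MG control library stood well below the other three. The fold change was 0.63 (0.51 to 0.75) in U87MG, the highest of the 31 members, and 0.08 (0.004 to 0.15) in U251MG. *PSMD3* was at 199, 267, 253 and 263 CPM and *PSMD11* at 144, 186, 206 and 207 CPM, both lowest in the U87MG control library. Their fold changes were 0.42 (0.35 to 0.49) and 0.37 (0.29 to 0.46) in U87MG and 0.06 (0.01 to 0.11) and 0.01 (-0.05 to 0.07) in U251MG. The other 4 lid genes ran from -0.13 to 0.16 in U87MG and from -0.10 to 0.12 in U251MG.

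The test that takes the cell lines as replicates of the knockdown called no member. Of 16821 genes in edgeR's quasi-likelihood test, which has the cell lines as blocks and 1 residual degree of freedom, 0.654% were higher and 1.6% lower in shFLI1 cells at an adjusted p below 0.05. Of the members 0 of 31 passed, 0 had an unadjusted p below 0.05, and DESeq2 called 0. The largest shared log2 fold changes were 0.35 for *PSMD12* (adjusted p = 0.36), 0.35 for *PSMD2* (adjusted p = 0.377) and -0.30 for *PSMA6* (adjusted p = 0.32) in edgeR's test. The fold change of *PSMD2* was positive in both cell lines and that of *PSMA6* negative in both. A p above the threshold does not show that the levels were equal.

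In U87MG most members past the threshold on the higher side lay on 1 chromosome. Of these 5 genes, 4 are on chromosome 17: *PSMD11* (32444510 to 32483319), *PSMD3* (39980807 to 39997959), *PSMC5* (63827431 to 63832019) and *PSMD12* (67337916 to 67366577, GRCh38). The remaining pair of members there, *PSMB6* and *PSMB3*, were at 0.04 and 0.19. The 578 well-covered genes of chromosome 17 had a median of 0.21 (log2 fold change) in U87MG, the highest of the 23 chromosomes compared, and -0.03 in U251MG. The 6 members there had medians of 0.40 and 0.02. Genes of chromosome 17 with an annotated start on either side of 25 Mb stood alike in U87MG, with medians of 0.21 (166 genes) and 0.22 (406 genes). Of these genes 36.1% and 32.8% were past 25% higher in U87MG, against 15.7% of the 9772 well-covered genes. This look at position was taken after the values of the members had been seen.

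Each member was then set beside the median of the well-covered genes that start within 5 Mb of it. In U87MG the members tended to follow these medians, which ran from -0.25 around *PSMD1* to 0.33 around *PSMC5*, with a Pearson r of 0.72 over the 31 members. This r includes the 6 members on chromosome 17, whose values led to the look at position, and none is given without them. In U251MG r was 0.21. The points are not independent, since near members share neighbours and all share the same libraries, so no p is given. Beside its own neighbours, *PSMD12* was still 0.42 higher in U87MG, and *PSMA6* 0.42 lower in U87MG and 0.38 lower in U251MG. No other member was more than 0.32 away from its neighbours in either cell line. *PSMD2* was 0.08 above its neighbours in U87MG, which themselves had a median of 0.28, and 0.31 above them in U251MG. The difference of core and cap medians stayed at -0.13 and -0.06 when neighbours' medians were taken off, and was -0.15 and -0.06 without the 6 members on chromosome 17. What moved the neighbours was not tested.

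**Figure D3:**
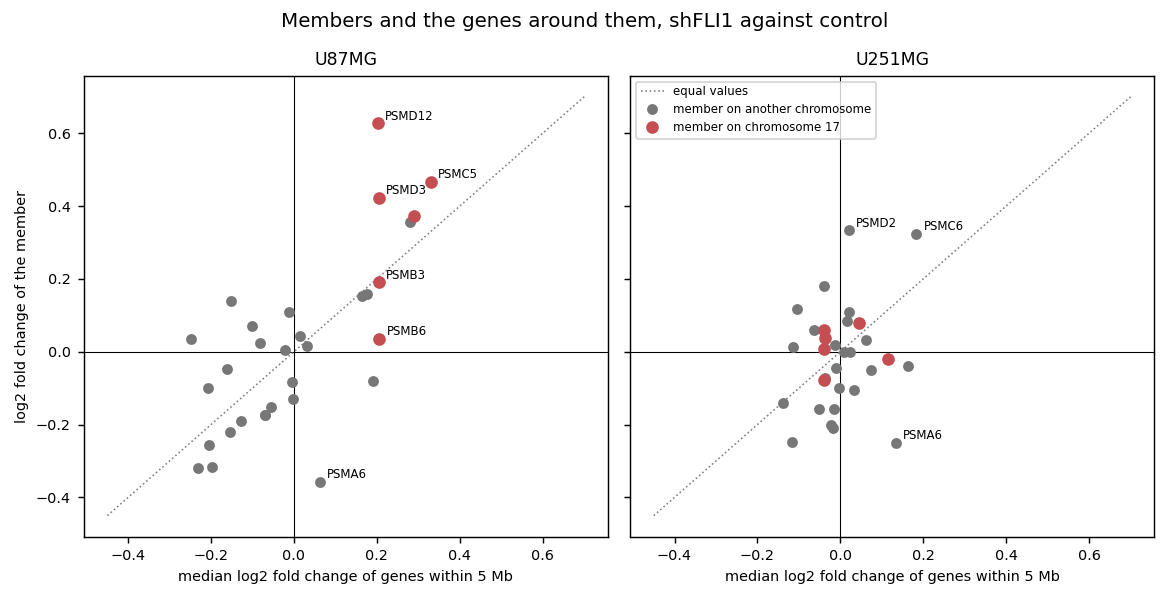
Log2 fold change (shFLI1 over control) of each of the 31 members against the median of well-covered genes starting within 5 Mb, in U87MG (left) and U251MG (right); red points are the 6 members on chromosome 17 and the dotted line marks equal values. In U87MG the points tend to follow the line, with *PSMD12* above and *PSMA6* below it, and in U251MG they scatter around 0 on the horizontal axis.

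The cell lines were compared next, and 2 members passed. In edgeR's quasi-likelihood test of U251MG against U87MG with the condition as a block, 11.4% of the 16821 genes tested were higher in U251MG and 6.22% higher in U87MG. Of the members 1 of 31 passed in each direction. *PSMA7* was at 334 and 335 CPM in the U87MG control and shFLI1 libraries and at 210 CPM in each of the U251MG libraries, so the cell lines did not overlap and the conditions within them were level. Its log2 difference was -0.67 (adjusted p = 0.0197, edgeR's quasi-likelihood test), lower in U251MG. *PSMD12* was higher in U251MG by 0.63 on the log2 scale (adjusted p = 0.038, same test), by 0.91 between the control libraries and by 0.36 between the shFLI1 libraries. Its cell lines did not overlap either, with 104 CPM at most in U87MG and 126 CPM at least in U251MG.

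Next in size were *PSMB2* (0.48, adjusted p = 0.054), *PSMB3* (0.46, adjusted p = 0.07) and *PSMD8* (-0.45, adjusted p = 0.076), which missed the threshold in edgeR's test. DESeq2 called *PSMA7* and *PSMD8* and not *PSMD12*. Counting the most abundant RNA of each gene alone, neither *PSMA7* nor *PSMD12* was called. Chromosome 17 as a whole was 0.33 higher in U251MG by the median of its 578 well-covered genes, and its 6 members 0.27 higher. Over the 31 members, r between a member and its neighbours within 5 Mb was 0.58 in this contrast. *PSMA7* lies on chromosome 20, whose 258 well-covered genes had a median of 0.09 in this contrast, while the 49 within 5 Mb of *PSMA7* had a median of -0.52, on the same side of 0 as *PSMA7*. The 32 neighbours of *PSMD12* had a median of 0.31, also on its side of 0.

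**Figure D4:**
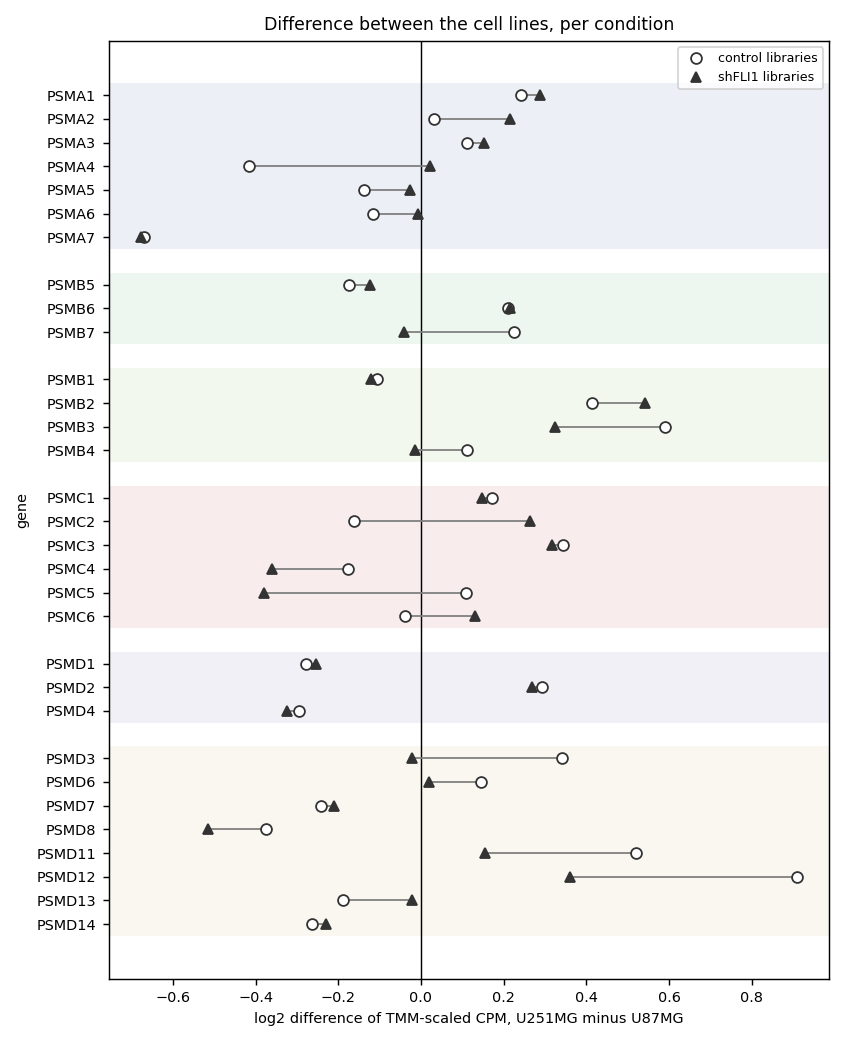
Log2 difference between the cell lines (U251MG minus U87MG, TMM-scaled CPM) for each subunit, with an open circle for the control and a filled triangle for the shFLI1 libraries; grey lines join the 2 values of a gene and shaded bands are the subcomplexes. The symbols of *PSMA7* coincide at -0.67 and -0.68, while those of *PSMD12* lie at 0.91 and 0.36.

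The immunoproteasome counterparts of the catalytic subunits, which replace them in the core when interferon signalling is on, were lower in the shFLI1 library than in the control of each cell line. *PSMB8*, the counterpart of *PSMB5*, was at 100, 26.3, 111 and 22.8 FPKM in U87MG control, U87MG shFLI1, U251MG control and U251MG shFLI1 cells. *PSMB5* stood at 193, 186, 181 and 173 FPKM in these libraries. The share of *PSMB8* in the sum of the pair went from 34.2% to 12.4% in U87MG and from 38.0% to 11.7% in U251MG. *PSMB9*, the counterpart of *PSMB6*, went from 12.0% to 0.906% and from 18.1% to 0.560% of its pair. *PSMB10*, the counterpart of *PSMB7*, went from 21.5% to 14.2% and from 14.7% to 9.84%. Shares are of transcripts per length in single libraries, not of assembled particles.

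**Figure D5:**
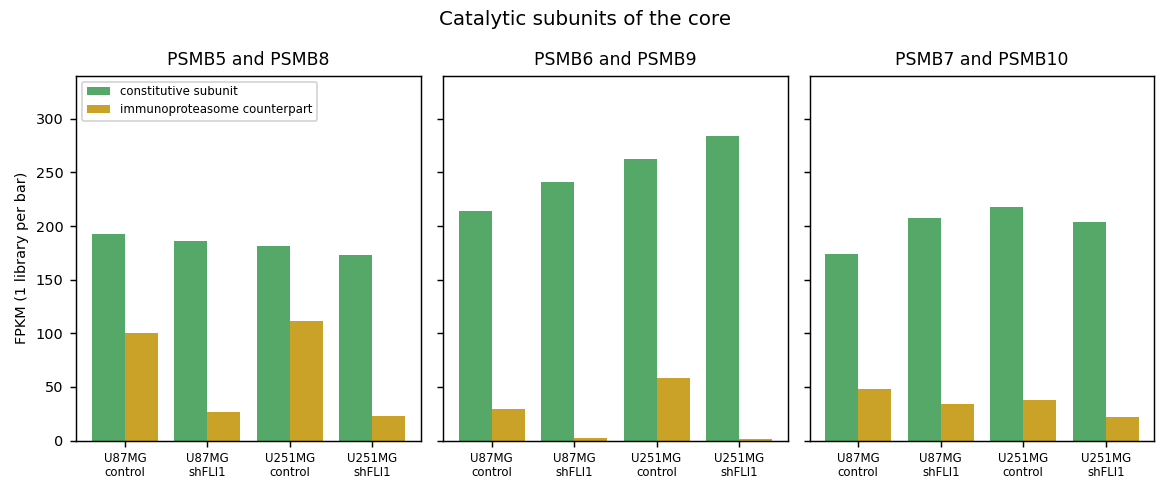
FPKM of each catalytic subunit of the constitutive core (green) and of its immunoproteasome counterpart (yellow) in the 4 libraries, with 1 library per bar. The green bars stay between 173 and 284 FPKM, and the yellow bars are lower in each shFLI1 library than in the control of the same cell line.

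By counts, *PSMB8* was at -2.10 and -2.35 in U87MG and U251MG, *PSMB9* at -3.80 and -5.13, and *PSMB10* at -0.61 and -0.83. The activator genes *PSME1* and *PSME2*, whose products form a cap that is induced with the immunoproteasome, were at -0.69 and -0.85 in U87MG and at -0.96 and -1.33 in U251MG. Of these 5 genes 5 were past the threshold on the lower side in both cell lines and 4 fell by the quasi-likelihood test (adjusted p = 0.00121 for *PSMB8*, 0.00145 for *PSMB9*, 0.0339 for *PSME1* and 0.0204 for *PSME2*). *PSMB10* missed it at an adjusted p of 0.066 in edgeR's test. Of all genes tested 7.81% were past the threshold on the lower side in both cell lines, and 1.6% were lower by the quasi-likelihood test.

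None of the 45 other related genes tested passed the quasi-likelihood test of the knockdown. Of all genes tested 0.654% passed it on the higher side and 1.6% on the lower, so 0 is near these shares. The 9 assembly chaperones, which build the core and the base, had medians of -0.20 in U87MG and -0.19 in U251MG. In each cell line 2 (22.2%) were past the threshold on the lower side, near the 19.4% and 17.6% of all genes tested. On the higher side 0 were, against 30.1% and 24.3% of all genes tested. Their medians depend on the scaling: -0.04 and -0.11 with total counts, and -0.02 and -0.05 with log2(FPKM + 1). The 10 other cap parts, activators and inhibitors had medians of 0.15 and -0.07. Among them *PSME4*, an alternative activator of the core, was the only gene past the threshold on the higher side in both cell lines, at 0.52 and 0.65 (adjusted p = 0.079, edgeR's quasi-likelihood test), and it is named here because of its values. The 11 shuttle and segregase genes tested had medians of 0.17 and 0.01, and the 6 ubiquitin genes and activating enzymes -0.13 and 0.05. Of the tissue-restricted core genes *PSMA8* was at -0.39 and -0.14, and *PSMB11* stayed at 0.0873 CPM or less. *DDI1* was not analysed here.

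Of 8 genes that control or localise proteasomes, 0 passed the quasi-likelihood test of the knockdown. This is near the shares over all genes tested, 0.654% on the higher side and 1.6% on the lower. By fold change 7 lay below 0 in U87MG and 8 in U251MG, with medians of -0.22 and -0.24, and 3 were past the threshold on the lower side in each cell line, where 19.4% and 17.6% of all genes were. The direction in U87MG depends on the scaling: with log2(FPKM + 1) 4 lay below and 4 above 0, with a median of 0.04, and with total counts 5 lay below 0. In U251MG 7 lay below 0 under either. *NFE2L1*, which raises transcription of the subunits, was at 250.99, 284, 318 and 281 CPM in U87MG control, U87MG shFLI1, U251MG control and U251MG shFLI1 cells. The log2 fold changes lay on opposite sides of 0, at 0.18 (0.11 to 0.24) in U87MG and -0.18 (-0.22 to -0.13) in U251MG.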

How the data were processed

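RNA-seq libraries of U87MG and U251MG cells, 1 per arm in each cell line, were grouped by their labels. The authors prepared mRNA libraries (the labels and the methods name different kits, each for mRNA), placed reads on GRCh38 (GRCh38.p13 per the labels) using HISAT2, and took FPKM from StringTie. The authors deposited these FPKM values per RNA with an estimated count per RNA that is not normalized, and the tool behind these counts is not given in the sources used here. A further 10 value columns (TPM and means) were not used. Where near-identical copies of a gene exist, such counts may be shared out between them, which could shift a subunit with a processed copy.

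Counts of 185042 linear RNAs were summed by gene identifier, giving 46660 identifiers, and rounded. Totals were 12229780, 21250153, 18108612 and 28891055 counts in U87MG control, U87MG shFLI1, U251MG control and U251MG shFLI1 cells. Analyses used Python 3.11.15, R 4.3.3, edgeR 4.0.16 (TMM, filterByExpr, glmQLFit and glmQLFTest on 4 libraries, Benjamini-Hochberg over 16821 genes) and DESeq2 1.42.0 as an alternative. Within a cell line, genes with at least 10 counts in 1 library were called past 25% higher, 20% lower or 2-fold without a test. The cell lines are the only replicates of the knockdown, and their difference in level is taken out as a block. The p-values of the knockdown test therefore rest on how far knockdown changes differed between the cell lines. Those of the cell line test rest on how far cell line differences differed between the conditions. In both, glmQLFit draws each gene's spread toward that of all genes tested, so a gene's own gap counts only in part. By edgeR's quasi-likelihood test of the knockdown *PSMD2* (0.36 in U87MG, 0.33 in U251MG) had an unadjusted p of 0.081. *PSMD12* (0.63 and 0.08) had 0.071 in the same test. Reads copied by PCR are not separate molecules, and the intervals cover counting error only. The code was tested on simulated data. No library was left out in turn, since each arm of a cell line has 1.

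The members, lists and motifs were chosen with earlier results of these data known. All members could be named. Full values were given for the catalytic subunits, the ATPases, *PSMD14*, *PSMD2*, *PSMD4*, members called in a test or in both cell lines, and the 3 highest and 3 lowest members per cell line. Of the related genes, the catalytic counterparts, *NFE2L1* and genes passing the knockdown test or past 2-fold in both cell lines were named.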

Additional observations from a re-analysis of the deposited data

Results flagged for a closer look

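For 5 members the log2 fold changes in the cell lines lay on opposite sides of 0 with counting intervals that did not reach it. *PSMA4* was at -0.26 in U87MG and 0.18 in U251MG, and *PSMC2* at -0.32 and 0.11. *PSMB3* was at 0.19 and -0.08, *PSMB7* at 0.11 and -0.16, and *PSMD8* at 0.0701 and -0.0715. Each value compares 1 library per arm, and the difference between the cell lines was not tested. With scaling to total counts the U251MG values of *PSMB3* and *PSMD8* were -0.0027 and 0.0028.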

How the results depend on the processing

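With scaling to total counts in place of TMM, the median of all genes tested moved from 0.06 to 0.22 in U87MG and the members' median moved with it, from 0.02 to 0.18 (0.15 with FPKM at either pseudocount); in U251MG the members' median was 0.0729 with total counts, 0.0735 with log2(FPKM + 1) and 0.0739 with log2(FPKM + 0.1). The count of members past 20% lower in U87MG was 1, and became 0 with total counts and with FPKM, and 3 with DESeq2 size factors. The count past 25% higher in U251MG was 2, and became 0 with DESeq2 size factors and 1 with FPKM. Of all genes tested 24.3% were past it with TMM and 23.4% with DESeq2 size factors. With FPKM 18.6% and 29.3% were, at the same pseudocounts. At 1.5-fold, 1 member was higher and 0 lower in U87MG and 0 higher in U251MG. Relative to genes within 5 Mb, a setting chosen after seeing the data, 1 member was higher in U87MG, and 0 were higher and 1 lower in U251MG. No share over all genes is given here for 1.5-fold or for the 5 Mb setting. The 2 cell line calls became 0 with the most abundant RNA of each gene alone and 4 with all genes of at least 1 count. Over all genes the calls were 2972 of 16821 in the main fit, and 274 of 15684 and 4032 of 43576 under these settings. Under the alternatives the core against cap difference lay between -0.13 and -0.16 in U87MG and between -0.03 and -0.06 in U251MG. FPKM at either pseudocount gave the smaller values in U251MG (-0.032 and -0.034). Settings that change only the library scaling shift all genes of a cell line nearly alike, so they could not move this difference. The most abundant RNA alone, FPKM and values relative to genes within 5 Mb could have moved it, and it kept its sign there. These settings reuse the same libraries, so the kept sign is no independent support for the difference. The knockdown test called 0 members under each alternative, so no reversal among called values could occur there. In the cell line test no called value of a member reversed its direction. Knockdown values without a call did change sign. The alpha ring's median in U87MG was -0.15 with TMM and 0.01 with total counts.

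Over all genes the knockdown test called 379 genes, 403 with DESeq2, 1303 with all genes of at least 1 count, and 0 with the most abundant RNA alone or with no replicate block by cell line; the calls were 110 higher and 269 lower with TMM, and 166 and 198 with total counts. The cell line test called 2972 genes, 1813 with DESeq2 and 274 with the most abundant RNA alone. The fit without the block by cell line gave a members' median of 0.003 and 0 calls among members. No paired analysis was possible by replicate number because each arm has 1 library, so the cell line served as the block. Depth limits *PSMC6* most, where intervals spanned 0.31 and 0.26 on the log2 scale.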
